A study of Rattus norvegicus with 6 samples.

Results

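Transcripts of 5 matrix metalloproteinases (Mmp2, Mmp3, Mmp9, Mmp13 and Mmp14) and of 2 of their tissue inhibitors (Timp1 and Timp2) were followed in cultured BMSCs of the rat, stromal cells from bone marrow that adhere to plastic and can form bone, fat and cartilage. These 7 genes, of 32883 in the deposited count table, were taken by their Ensembl gene IDs from a list that paired each ID with a symbol. The table gives IDs alone and 0 of the 7 pairs could be checked against a reference used here, so each symbol stands for the ID given with it. All cells were primary BMSCs, and both groups had alpha-MEM medium supplemented with 10% serum (fetal bovine). The Hypoxia group (3 libraries) was held at 1% O2 for 7 days, and the Control group (3 libraries) was kept under conditions called normal, with no oxygen percentage given. Poly(A) mRNA libraries were made with a stranded kit. The labels name neither strain, sex nor age of the rats, do not say whether libraries came from separate animals or cultures, and mention muscle in the extraction protocol while naming BMSCs everywhere else. The p-values below therefore measure only the spread between these libraries, which may be technical. The fit estimates that spread partly from all tested genes, so it is not each gene's own spread alone.

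Matrix metalloproteinases are zinc-dependent enzymes that cut collagens and other proteins of the extracellular matrix. Most are secreted as inactive proenzymes and act only after removal of a propeptide, and tissue inhibitors of metalloproteinases (TIMPs) bind the active site of the mature enzymes. In bone, collagenases and gelatinases take part in turnover of the collagen matrix by osteoblast-lineage cells, chondrocytes and osteoclasts. The comparison asks how their transcripts stood after 7 days at low oxygen. Activity, secretion and protein were not measured, so the values are levels of mRNA.

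The libraries held 13273781 to 13361629 reads assigned to genes in the Control group and 14879124 to 18533675 in the Hypoxia group. Values are CPM (read counts relative to library size), corrected here for composition with TMM factors. Control replicate 2 stood apart from the other controls over all genes. The chi-square per gene averaged 6.48 and 6.57 when it was set against them, where sampling noise gives 1 and the other within-group pairs lay between 1.51 and 2.23. Fold changes are therefore also given without it where they moved. Whether other cell types were present, and in what share, was not analysed here, because markers could not be matched to IDs. In such bulk samples fewer cells of a type and less RNA per cell cannot be told apart.

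Of the 7 genes, 6 had enough reads to be tested and Mmp3 did not. At 1% O2, Mmp2, Mmp13, Mmp14, Timp1 and Timp2 were lower and Mmp9 was higher (edgeR quasi-likelihood test, Benjamini-Hochberg over 12702 tested genes, adjusted p under 0.05). Across all tested genes 45.0% passed this test, 21.9% as lower and 23.1% as higher. Only Mmp13 was at least 2-fold lower, as were 1.88% of tested genes, and only Mmp9 was at least 2-fold higher, as were 2.83%. Control and 1% O2 libraries were fully separate in CPM for each of the 6 genes, which held for 55.5% of tested genes. Mmp9 passed the low-count filter through its 1% O2 libraries alone, so it had to differ to be tested. The median log2 fold change was -0.52 over the 6 genes and 0.0025 over all tested genes. The genes were chosen with earlier results of these data known. They were also measured more closely, with a median SE of 0.052 against 0.087 over all tested genes. The shares and medians therefore describe the 6 genes and are no test of them as a set.

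**Figure D1:**
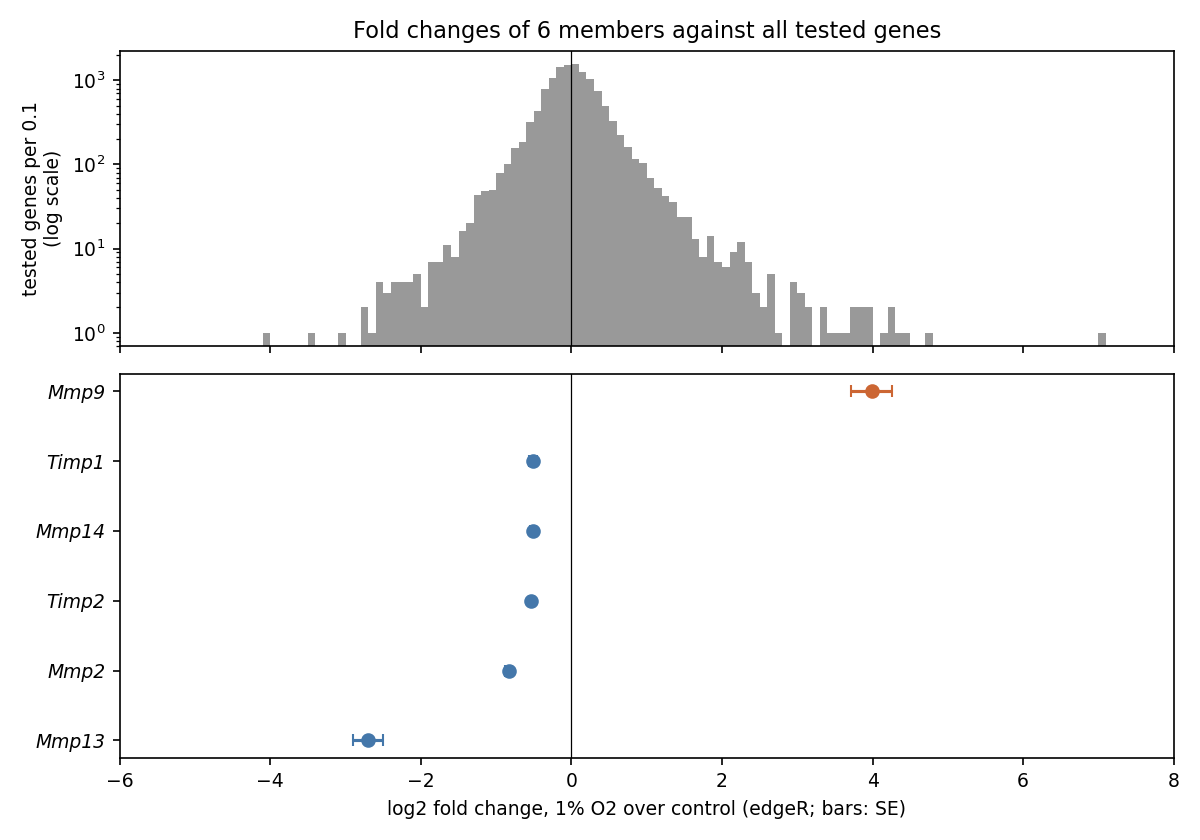
Log2 fold change of 1% O2 over control. The upper histogram counts all 12702 tested genes in steps of 0.1 on a logarithmic vertical axis, and the lower panel gives the 6 tested members with their SE. Mmp9 lies far to the right at 3.99, Mmp13 to the left at -2.70, and the other 4 genes sit between -0.83 and -0.51.

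The gelatinases Mmp2 and Mmp9 degrade denatured collagen and basement membrane collagen, and their transcripts moved in opposite directions. Mmp2 (ENSRNOG00000016695) stood at 417, 408 and 392 CPM in Control replicates 1 to 3 and at 223, 219 and 242 CPM in Hypoxia replicates 1 to 3. Each 1% O2 library was below each control, and the closest pair of libraries still differed 1.62-fold. The group means were 406 ± 13 and 228 ± 12 CPM (SD, n = 3 each). The log2 fold change of Mmp2 was -0.83 ± 0.05 (SE), or 1.78-fold lower (adjusted p = 8.37e-09, edgeR). Of the 12702 tested genes, 392 had a larger fall.

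Mmp9 (ENSRNOG00000017539), in bone known chiefly as a product of osteoclasts and other cells of haematopoietic origin, was barely detected in controls. The control libraries held 4, 3 and 7 reads of it, or 0.293, 0.219 and 0.509 CPM. The 1% O2 libraries held 87, 86 and 85 reads, or 4.84, 5.91 and 5.92 CPM. The highest control was 9.52 times below the lowest library at 1% O2. Its mean rose from 0.34 ± 0.15 to 5.56 ± 0.62 CPM (SD, n = 3 each), with a log2 fold change of 3.99 ± 0.27 (SE, adjusted p = 4.83e-08, edgeR). That is 15.9-fold, and 7 of the 12702 tested genes had a larger rise. As Mmp9 was tested only because of its reads at 1% O2, this p-value and this rank give no independent support. Pooled over libraries, 14 reads in controls against 258 at 1% O2 gave a ratio of 16.2 with an exact 95% interval of 9.46 to 30.0. This interval covers counting error only, yet it is wider than the SE implies. The SE was derived from the F statistic and should not be read as the precision of this fold. Without Control replicate 2 the log2 fold change was 3.76, and without Control replicate 3, the highest control, it was 4.39.

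**Figure D2:**
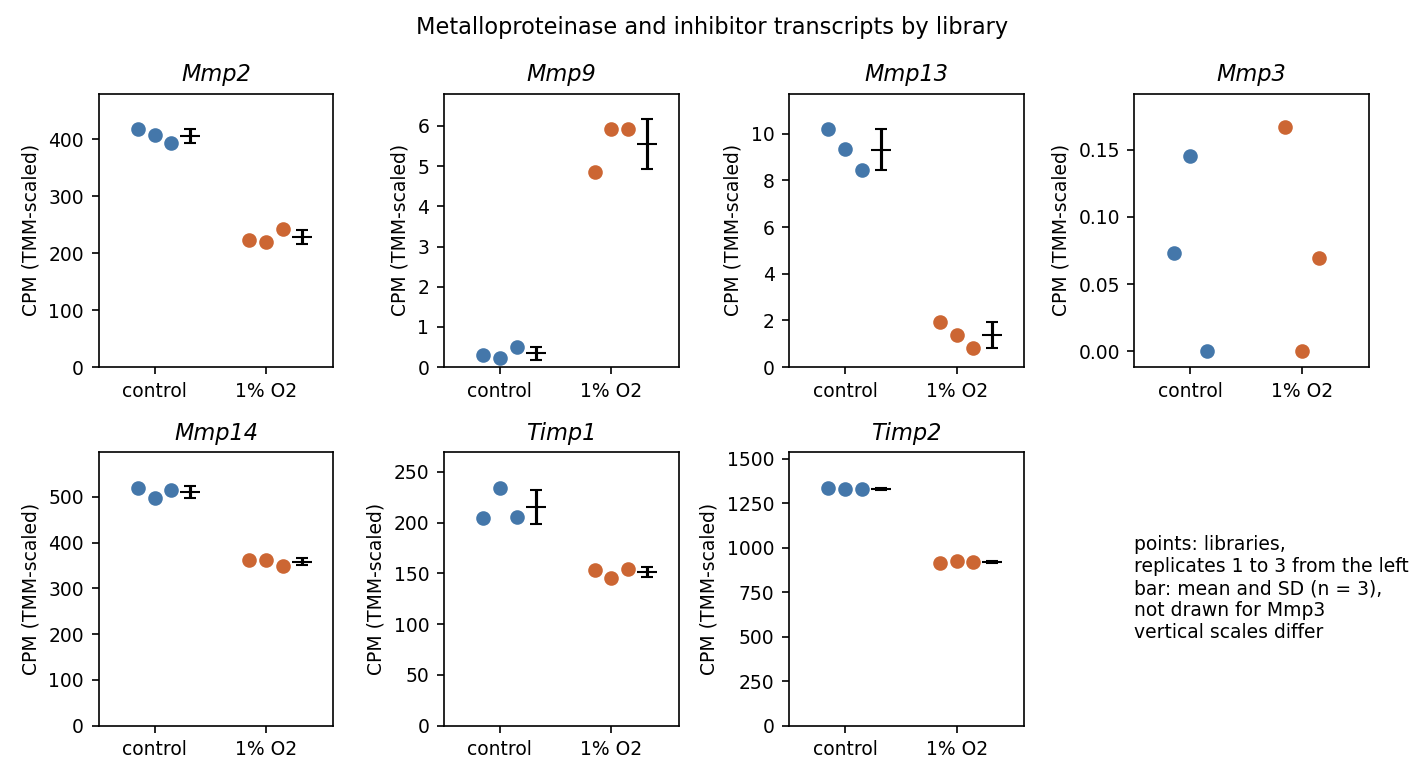
TMM-scaled CPM of the 7 genes in each of the 6 libraries, 1 panel per gene with its own vertical scale; bars are the mean and SD of 3 libraries, not drawn for Mmp3. The groups separate in 6 panels, downward at 1% O2 for all but Mmp9, and mix in the panel of Mmp3, where no library exceeds 3 reads.

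Mmp13 (ENSRNOG00000008478) is the collagenase that cuts fibrillar collagen in rodent bone and cartilage, and it had the largest fall among these genes. The controls held 139, 128 and 116 reads, or 10.2, 9.32 and 8.43 CPM. The 1% O2 libraries held 35, 20 and 12 reads, or 1.95, 1.37 and 0.835 CPM. The groups were at least 4.33-fold apart in every pair of libraries. The means were 9.31 ± 0.88 and 1.39 ± 0.56 CPM (SD, n = 3 each), and the log2 fold change was -2.70 ± 0.20 (SE), at an adjusted p of 1.40e-07 in edgeR. This was 6.51-fold lower, and 4 of the 12702 tested genes had a larger fall. Within the 1% O2 group, replicate 1 was 2.33 times replicate 3. Without Hypoxia replicate 1 the log2 fold change of Mmp13 was -3.06, and without Hypoxia replicate 3 it was -2.46.

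Mmp3 (ENSRNOG00000032626), a stromelysin, cuts proteoglycans, fibronectin and other matrix proteins and can activate other proenzymes of the family. It was at the floor of detection, with 1, 2 and 0 reads in controls and 3, 0 and 1 at 1% O2. Its pooled level was 0.0729 CPM in controls (exact Poisson 95% interval 0.0150 to 0.213) and 0.0853 CPM at 1% O2 (0.0233 to 0.219). These intervals cover counting error only. No difference was detectable at this depth, and no fold is given. In a fit with no low-count filter over 19600 genes its adjusted p was 0.94 by edgeR.

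In the RefSeq annotation of build GRCr8, Mmp13 and Mmp3 lie on chromosome 8 in 1 run of metalloproteinase genes, separated by Mmp12 and Mmp1b. Their promoters are shown because the neighbours hold like motif matches in the same order, though at different spacing. Mmp13 was detected and lower at 1% O2, while Mmp3 had almost no reads. RefSeq promoter sequences, matched by symbol, were at hand for 4 of the 7 genes (Mmp3, Mmp13, Timp1 and Timp2), and the 250 bases before each start were searched on both strands. The deposited counts were made on another build, rn6. The motifs were the AP-1 site TGANTCA, the TATA box TATAAA, the cores ACGTG and GCGTG of the hypoxia response element, and the GC box GGGCGG bound by SP1, the factor named in the title of the series. No printed match overlaps another. Below are bases 80 to 21 before the start on the plus strand of GRCr8, chr8:12782749-12782808 for Mmp13 and chr8:12925201-12925260 for Mmp3, with the AP-1 and TATA matches in capitals.
Mmp13: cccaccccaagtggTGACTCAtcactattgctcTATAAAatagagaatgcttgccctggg
Mmp3: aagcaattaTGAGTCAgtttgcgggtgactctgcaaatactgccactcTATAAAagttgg
Both genes hold an AP-1 match followed by a TATA match, 12 bases apart in Mmp13 and 32 bases apart in Mmp3. The start used for Mmp3 lies 14 bases inside its outermost annotated start. Among 33469 rat promoters of the same length, 6.34% hold TGANTCA, 12.9% hold TATAAA and 1.02% hold both, in any order and at any spacing. The pair was chosen for its matches, so these shares are no test of it. The promoters of Mmp12 and Mmp1b are not shown.

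The whole 250 bases before the start of Mmp13 (GRCr8, plus strand, chr8:12782579-12782828) are given because they also hold 2 matches to the hypoxia element core, on the minus strand and printed here as their reverse complement CACGT.
Mmp13: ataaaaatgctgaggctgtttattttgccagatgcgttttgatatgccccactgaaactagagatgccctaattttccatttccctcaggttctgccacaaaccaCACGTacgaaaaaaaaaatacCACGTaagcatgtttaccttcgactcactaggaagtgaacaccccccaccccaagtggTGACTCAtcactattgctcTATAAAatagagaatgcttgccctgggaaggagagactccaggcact
The capitals mark, from the left, the pair of hypoxia element cores at 145 to 141 and 124 to 120 bases before the start, the AP-1 match at 66 to 60 and the TATA match at 47 to 42. ACGTG is found, with any number of matches, in 16.6% of rat promoters of this length. The share with 2 matches was not counted. Mmp3 held 0 matches to ACGTG, and neither gene held GCGTG, found in 25.9%. A match describes these letters and is not a measured binding site.

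**Figure D3:**
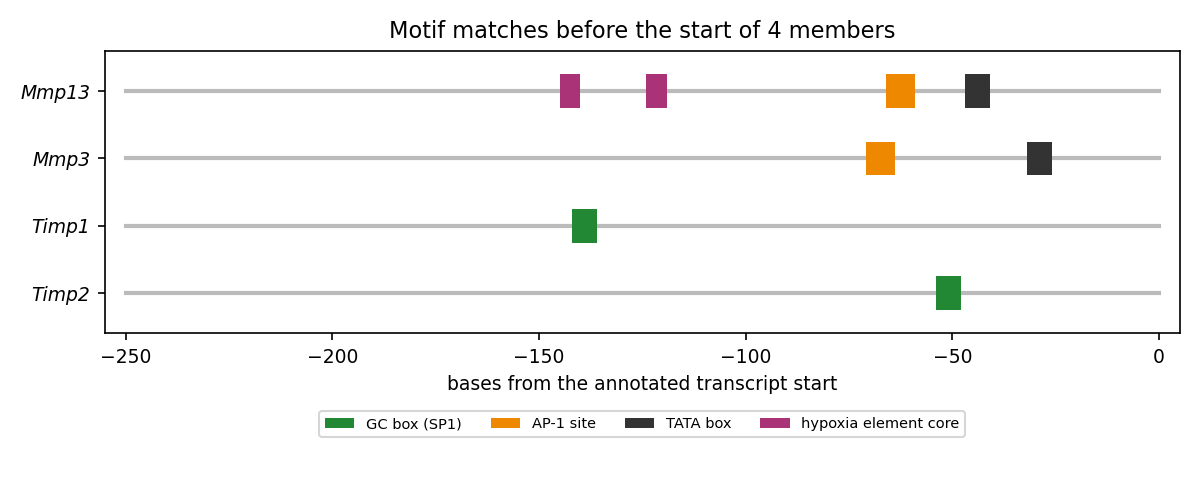
Motif matches in the 250 bases before the annotated start of 4 genes; the horizontal axis is the distance from the start in bases, and coloured boxes are matches to scale. Mmp13 and Mmp3 show an AP-1 match upstream of a TATA match, Mmp13 also shows 2 hypoxia element cores, and Timp1 and Timp2 show 1 GC box each.

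Mmp14 (ENSRNOG00000010947), the membrane-type enzyme that activates the Mmp2 proenzyme at the cell surface and is itself a collagenase, was also lower. Its controls stood at 520, 497 and 515 CPM, against 363, 362 and 350 CPM at 1% O2. The groups were far apart relative to the spread within each, with means of 510 ± 12 and 358.2 ± 7.4 CPM (SD, n = 3 each). The log2 fold change was -0.51 ± 0.04 (SE), or 1.42-fold lower (adjusted p = 2.49e-07, edgeR). Falls larger than that of Mmp14 were found for 1052 of the 12702 tested genes.

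Both inhibitors were lower by a like amount. Timp1 (ENSRNOG00000010208), a secreted inhibitor of most soluble metalloproteinases that also binds the Mmp9 proenzyme, stood at 205, 234 and 206 CPM in controls and at 154, 146 and 154 CPM at 1% O2. The highest control was Control replicate 2, the library that stood apart over all genes. The means were 215 ± 17 and 151.2 ± 4.9 CPM (SD, n = 3 each), and the log2 fold change was -0.51 ± 0.06 (SE), or 1.42-fold lower (adjusted p = 5.84e-06, edgeR). Without Control replicate 2 it was -0.44 (adjusted p = 3.49e-11, edgeR). The adjusted p of every tested member fell without this library, for Mmp2 to 2.19e-17 (edgeR). The smaller p is therefore not particular to Timp1 and is not stronger evidence for its change. In the RefSeq annotation the span of Timp1 overlaps that of Syn1. Exons and strands of this pair were not compared, and whether counting used strand is not stated. An effect of the overlap on the reads counted for Timp1 is therefore not known.

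Timp2 (ENSRNOG00000003148), which inhibits metalloproteinases and also joins Mmp14 and the Mmp2 proenzyme in the complex where Mmp2 is activated, had the narrowest spread of the 7 genes. Its levels were 1338, 1329 and 1328 CPM in controls and 917, 925 and 922 CPM at 1% O2. The coefficient of variation between libraries was 0.41% in controls and 0.45% at 1% O2, below the 0.74% and 0.84% that read counting alone gives. The means were 1331.7 ± 5.5 and 921.3 ± 4.1 CPM (SD, n = 3 each). The log2 fold change was -0.53 ± 0.04 (SE), or 1.45-fold lower (adjusted p = 6.35e-08, edgeR). Larger falls were found for 986 of the 12702 tested genes, against 1058 for Timp1. The span of Timp2 overlaps that of Cep295nl in the annotation, with the same limit as for Timp1.

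The 250 bases before the start of Timp2 (GRCr8, minus strand, chr10:104089215-104089464) are shown beside those of Mmp13, since they lack its motifs and hold a GC box. Transcripts of Mmp13 and Timp2 were both lower at 1% O2, and a link between these letters and the change was not tested.
Timp2: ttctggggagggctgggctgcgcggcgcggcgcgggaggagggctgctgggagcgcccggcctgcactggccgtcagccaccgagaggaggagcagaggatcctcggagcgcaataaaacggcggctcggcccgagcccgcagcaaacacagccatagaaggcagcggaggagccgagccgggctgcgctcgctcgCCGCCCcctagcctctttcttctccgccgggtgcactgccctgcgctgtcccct
The capitals mark the GC box at 54 to 49 bases before the start, printed as its reverse complement CCGCCC because GGGCGG lies on the strand opposite to the one shown. This window is 72% G and C, where that of Mmp13 is 44.4% and the median over 33469 rat promoters is 51.2%. Timp1 also held 1 GC box, 142 to 137 bases before the start in the table, which lies 1456 bases inside its outermost annotated start. GGGCGG is found in 30.5% of rat promoters of this length, a share not matched for G and C content. Neither inhibitor held a match to the AP-1, TATA or hypoxia element letters, and neither Mmp13 nor Mmp3 held a GC box.

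The spread between libraries was set beside the spread that read counting alone gives, both as coefficients of variation. For Mmp9 it was close to counting error in both groups, at 44.3% against 48.5% in controls and 11.1% against 10.8% at 1% O2. For Mmp13 at 1% O2 it was 40.2% against 22.7% from counting. Among the well-counted genes, Timp1 varied most in controls, at 7.79% against 1.84%, and Mmp2 most at 1% O2, at 5.47% against 1.68%.

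**Figure D4:**
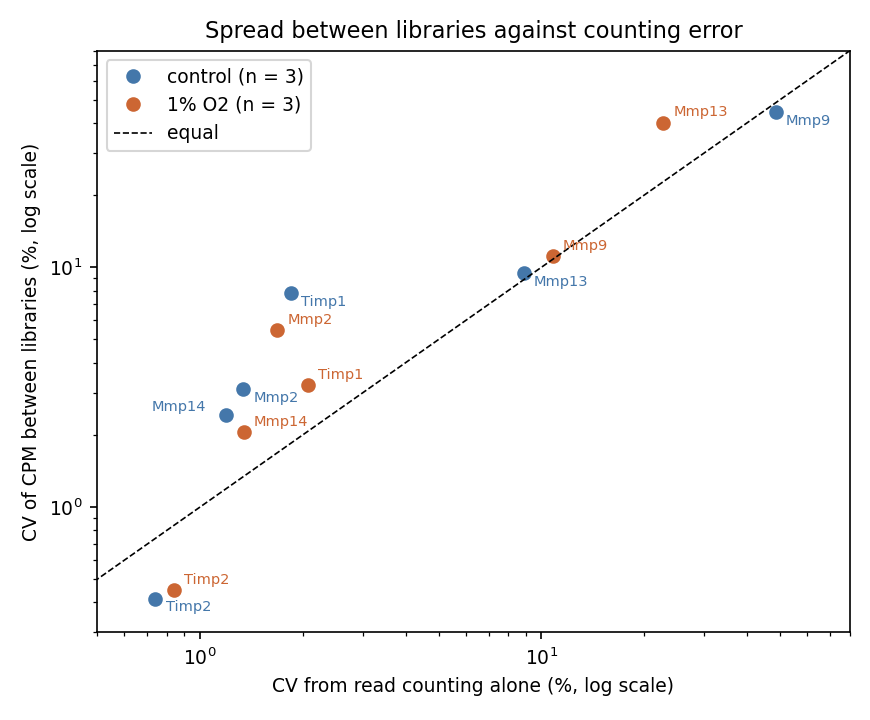
Coefficient of variation of CPM between the 3 libraries of a group (vertical) against that expected from read counting alone (horizontal), both in percent on logarithmic axes, for 6 genes in 2 groups. Timp2 lies below the line of equality in both groups, Mmp9 lies near it, and Mmp13 at 1% O2 (40.2%) and Timp1 in controls (7.79%) lie above it.

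Ratios of read counts within a library were used to set an enzyme beside an inhibitor, since they do not depend on library scaling. They compare conditions and not the levels of 2 genes, because gene length was not taken into account. They were not tested, and 0.5 reads were added to each count. The log2 ratio of Mmp14 to Timp2 was -1.36, -1.42 and -1.37 in controls and -1.34, -1.36 and -1.40 at 1% O2. The groups overlapped, and their means differed by 0.02, with 0.0025 to 0.04 when 1 library was left out. The ratio of Timp1 to Timp2 also overlapped, at -2.71, -2.50 and -2.69 against -2.58, -2.67 and -2.58. Its mean difference was 0.03, and leaving out 1 library gave -0.01 (without Control replicate 1) to 0.09 (without Control replicate 2), so its sign was not fixed. The fall of these 3 transcripts was thus alike to within the spread between libraries, which does not show that it was the same.

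Mmp2 fell further than Timp2 in these libraries. Its log2 ratio to Timp2 was -1.68, -1.70 and -1.76 in controls and -2.04, -2.08 and -1.93 at 1% O2. Every 1% O2 library lay below every control, and the mean difference was -0.30. Put as reads, controls held 3.28 reads of Timp2 for each read of Mmp2, and cells at 1% O2 held 4.04. The ratio of Mmp13 to Timp1 moved from a mean of -4.53 ± 0.17 to -6.81 ± 0.60 (SD, n = 3 each), from 23.0 to 113 reads of Timp1 per read of Mmp13. The ratio of Mmp9 to Timp1 moved the other way, from -9.23 ± 0.64 to -4.76 ± 0.19, or from 600 to 27.2 reads of Timp1 per read of Mmp9. Neither of these pairs overlapped between groups. The control ratio of Mmp9 to Timp1 is rough, since it rests on 4, 3 and 7 reads of Mmp9. Its mean difference between groups was 4.47 with 0.5 reads added and 4.09 with 2 reads added.

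**Figure D5:**
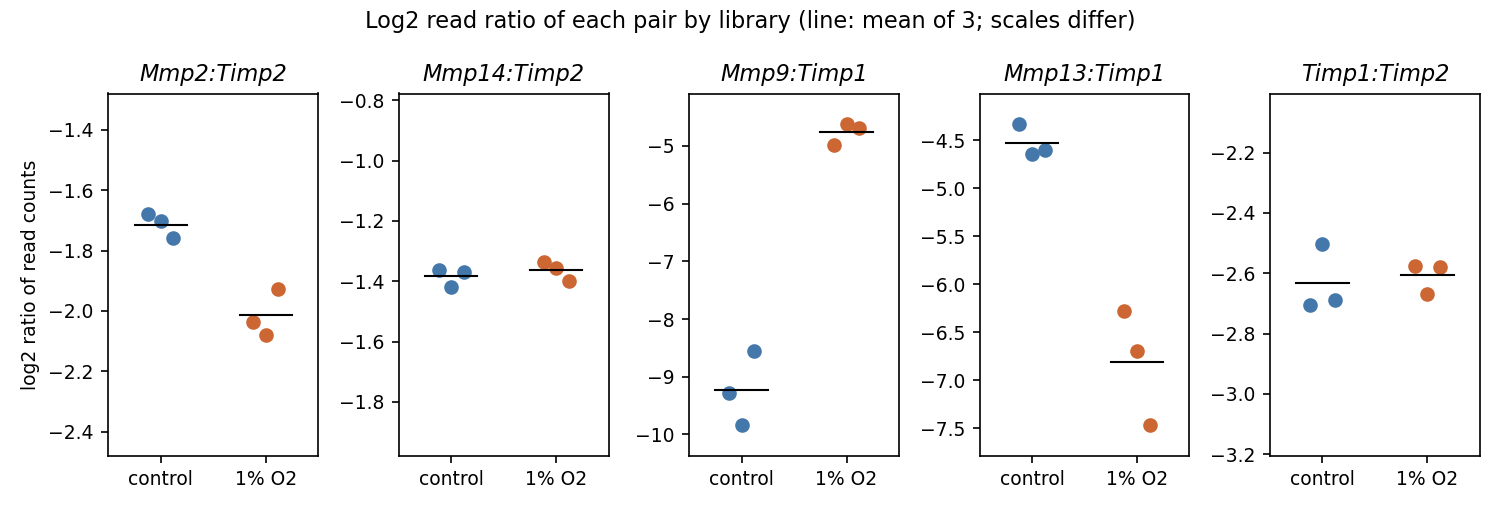
Log2 ratio of read counts for 5 pairs of genes in each library, with a line at the mean of 3 libraries; vertical scales differ between panels. The groups overlap for Mmp14 to Timp2 and for Timp1 to Timp2, and are separate for Mmp2 to Timp2, Mmp13 to Timp1 and, in the opposite direction, Mmp9 to Timp1.

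As a share of all reads, the 7 genes together fell from 0.2548% ± 0.0022 in controls to 0.1614% ± 0.0003 at 1% O2 (SD, n = 3 each). The 5 metalloproteinases went from 0.0954% to 0.0575% and the 2 inhibitors from 0.159% to 0.104%. These unscaled sums are carried by Mmp2, Mmp14 and Timp2. Mmp9 held at most 0.000575% of the reads of a library.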

How the data were processed

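The authors deposited unnormalized read counts for each Ensembl gene ID in 1 table. HISAT2, featureCounts and DESeq2 are named with build rn6, per the submitters' processing notes. Neither tool versions nor annotation release were stated in the labels used here, and whether counting used strand was not stated. Each library name in the labels matched 1 column. The counts went into edgeR 4.0.16 (R 4.3.3) with filterByExpr (minimum count 10, total 15), TMM factors, and the two-sided quasi-likelihood F-test of group over all 6 libraries, Benjamini-Hochberg adjusted over 12702 genes, threshold 0.05. The SE is the log2 fold change divided by the square root of F. The fit was also run on counts simulated from its own means and dispersions, which cannot show how well the model holds for these libraries. The RefSeq table (GRCr8, 47357 genes) gives an Ensembl ID for 0 genes, so the 11 lists of related genes and cell markers, which need symbols, were not run, and no genes were ranked by likeness. All 7 members are named. Members and lists were chosen with earlier results of these data known. Alternatives were other scalings and filters, DESeq2 1.42.0, limma-voom (limma 3.58.1), a replicate block, a threshold of 0.01 and leaving out each library.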

Additional observations from a re-analysis of the deposited data

How the results depend on the processing

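The 6 tested genes kept their direction and their side of the threshold under each of the 14 alternatives, except that Mmp9 could not be fitted where at least 10 reads were asked of every library. Where the default low-count filter was kept, Mmp9 was tested only through its 1% O2 libraries. Those fits give no independent support for its side of the threshold. Log2 fold changes ranged from -0.92 to -0.80 for Mmp2, 3.76 to 4.39 for Mmp9, -3.06 to -2.46 for Mmp13, -0.60 to -0.49 for Mmp14, -0.60 to -0.44 for Timp1 and -0.62 to -0.53 for Timp2. The highest adjusted p among them was 0.00013, for Timp1 without Hypoxia replicate 3 by edgeR. Library totals in place of TMM shifted the median of all genes by -0.09. The number of changed genes, 5718, ranged from 4580 with DESeq2 to 6071 with library totals at the threshold of 0.05. At a threshold of 0.01 the main fit gave 3981. Replicate numbers were not taken as pairs, since the labels state no pairing. Deviations of log CPM from the group mean correlated at -0.04, -0.05 and 0.01 between same-numbered libraries of the groups. Between differently numbered libraries these correlations ran from -0.01 to 0.05. With the replicate block 5295 genes were called and the log2 fold changes were -0.83 for Mmp2, 3.998 for Mmp9, -2.73 for Mmp13, -0.51 for Mmp14, -0.51 for Timp1 and -0.53 for Timp2. With 2 reads added in place of 0.5, each ratio moved by less than the spread between libraries. The ratio of Mmp3 to Timp1 is not given, since Mmp3 had at most 3 reads. Depth limits Mmp3 and the controls of Mmp9.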
